A study of Homo sapiens with 2 samples.

Results

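The genes described here encode the nuclear subunits of the mitochondrial respiratory chain and the ATP synthase, read in hNCI-H716 cells kept in low or high glucose. The genes were selected on their symbol and on a minimum level in both libraries, and the group was taken up with earlier results of these data known, so its direction is a description. Included were the genes whose symbol began with NDUFA, NDUFB, NDUFC, NDUFS or NDUFV followed by a digit, was SDHA, SDHB, SDHC or SDHD, or began with UQCR, with COX and a digit from 4 to 8, or with ATP5. Read-through genes with a dash and pseudogenes were left out, NDUFB9 was left out by name, and a gene needed at least 1 CPM (estimated counts scaled to the library total) in both libraries. Of 85 genes that matched a symbol stem, 78 remained out of the 19989 genes measured, with 37 in complex I, 4 in complex II, 9 in complex III, 11 in complex IV and 17 in complex V. The measured CPM served only for this minimum. The nearest gene below it was COX6B2, far under the minimum at 0.058 CPM (low) and 0.11 CPM (high), or 1 and 2 estimated counts, and the lowest member above it was UQCRHL, at 18.7 and 18.5 CPM. The symbols are those of the deposited table, some of them older names.

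hNCI-H716 is a human colorectal adenocarcinoma line that secretes glucagon-like peptide-1 and is used as a model of the intestinal L-cell. The cells were attached on Matrigel and then grown for 48 h in medium with 5.5 mM glucose (low) or 25 mM glucose (high), with the same serum supplement, and each concentration gave 1 library of polyadenylated RNA. The labels set the libraries apart by glucose concentration alone. The line is 1 tumour-derived population, so all values come from a single genetic background, and a cancer line is limited as a stand-in for the primary L-cell.

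The recovered library totals were 21757802 (low) and 19456812 (high) estimated counts. No difference has a replicate check, and no p-value is given. Each log2 ratio of high over low glucose carries a 95% exact binomial interval, which covers counting error only, so an interval on 1 side of 0 compares these libraries and not the conditions. In a bulk library, fewer cells of a type and less RNA per cell cannot be told apart. The proglucagon gene GCG was at 1954 CPM in low and 1808 CPM in high glucose, the neuroendocrine marker CHGA at 704 and 653 CPM and the prohormone convertase PCSK1 at 555 and 600 CPM. The epithelial keratins KRT8 (270 and 291 CPM) and KRT18 (182 and 212 CPM) and the intestinal genes VIL1 (11.7 and 17.8 CPM) and CDX2 (30.5 and 38.2 CPM) were present, while EPCAM was at only 3.37 and 3.50 CPM. Markers of leukocytes, endothelium, fibroblasts, red cells and muscle were either without a value or below 0.5 CPM, while the liver marker ALB was at 456 and 487 CPM.

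The respiratory chain passes electrons from NADH (complex I) and succinate (complex II) through ubiquinone to complex III, through cytochrome c to complex IV, and there to oxygen. Complexes I, III and IV pump protons across the inner mitochondrial membrane, and complex V, the ATP synthase, lets them back through a rotating ring to make ATP. Complex II is encoded wholly by nuclear genes, whereas the other complexes also contain subunits encoded by mitochondrial DNA. Nuclear respiratory factor 1 (NRF1), the ETS-family factor GABP (also called NRF2 in this setting) and YY1 are known to bind the promoters of many of these nuclear genes.

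Promoter windows are shown because they let short letters of the elements of these 3 factors be read beside the ratios. RefSeq promoters (GRCh38.p14, from 250 bases before to 50 after the annotated start) matched 64 of the 78 members. The letters GCGCATG of the NRF1 element were in 15 of them (23.4%), against 9.29% of the genes tested that had a promoter and 5.30% of all genes with a promoter of this length. CCGGAAG, of the GABP element, was in 20 (31.2%), against 23.5% and 12.2%. ATGGCGG, of the YY1 element, was in 21 (32.8%), against 13.3% and 6.66%, and 15 of these 21 were complex I genes, which made up 32 of the 64 members with a promoter. Each was searched on both strands, so that a match on the opposite strand reads as CATGCGC for NRF1, as CTTCCGG for GABP and as CCGCCAT for YY1. The NRF1 letters can overlap themselves on the opposite strand, and the YY1 letters hold ATG, which also begins a coding sequence. Each line gives 30 bases on the gene's strand, 5′ to 3′, with the letters searched in capitals.
SDHD, NRF1 letters, chr11:112086752-112086781, plus strand: cagctgtgtttGCGCATGcgcgacgggtgt
NDUFB4, NRF1 letters, chr3:120596166-120596195, plus strand: aagagcacttcGCGCATGcgcatatcaccg
ATP5I, NRF1 letters, chr4:674336-674365, minus strand: cgccgctgacgGCGCATGcgtgcgcccagc
COX5B, NRF1 letters, chr2:97645916-97645945, plus strand: gcagagctgggCATGCGCaatttccgcccc
NDUFB7, GABP letters, chr19:14572072-14572101, minus strand: gcctaaatgacCCGGAAGctgtgtctgact
COX8A, GABP letters, chr11:63974591-63974620, plus strand: cagctccagaaCTTCCGGccagcgcagcca
NDUFS1, GABP letters, chr2:206159583-206159612, minus strand: ggctggggccaCTTCCGGcggaactgcggg
NDUFS7, YY1 letters, chr19:1383916-1383945, plus strand: ccgaggccaagATGGCGGtgctgtcaggtg
NDUFA9, YY1 letters, chr12:4649116-4649145, plus strand: tgtgggaaaagATGGCGGctgccgcacaat

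These windows were chosen, after their values were seen, from members with ratios below and above 0. The same letters stood in members on both sides of 0. NDUFB7 and NDUFS1 both held the GABP letters, and their log2 ratios were -0.38 and 0.09. NDUFS7 and NDUFA9 both held the YY1 letters, with log2 ratios of -0.30 and 0.12. Members with the GABP letters had a median log2 ratio of -0.12 (18 of 20 lower in high glucose) and those without them -0.14 (36 of 44 lower). For the NRF1 letters the medians were -0.13 with (13 of 15 lower) and -0.14 without (41 of 49 lower), and for the YY1 letters -0.13 (18 of 21) and -0.14 (36 of 43). Among all genes tested with a promoter, 1156 of 2249 with the GABP letters were lower, 440 of 890 with the NRF1 letters and 664 of 1269 with the YY1 letters. A match is a run of letters and not a binding site.

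Most of the 78 genes were slightly lower in high glucose. Their summed level was 13252 CPM in low and 12543 CPM in high glucose, which was 1.32% and 1.26% of the library, a log2 ratio of sums of -0.079 (interval -0.087 to -0.072) without NDUFB9. Of the members, 63 were lower in high glucose and 15 higher, where 51.2% of the 12793 genes tested (at least 1 CPM in both libraries) were lower and 48.8% higher. The median log2 ratio was -0.12 (middle 50% of members from -0.19 to -0.026), against -0.0048 over all genes tested. The interval lay below 0 for 51 members and above 0 for 6, where 15.9% of genes tested lay below and 15.9% above. Among the 7745 genes within the members' own range of mean CPM, 46.6% were lower and 53.4% higher, and 18.7% had intervals below 0 and 22.8% above. The differences were small, with 17 members at a log2 ratio of -0.2 or less (a fold of 1.15), against 15.7% of genes tested, and 0 members at 0.2 or more, against 10.7%. Within the members' range of CPM these shares were 7.72% and 6.83%.

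**Figure D1:**
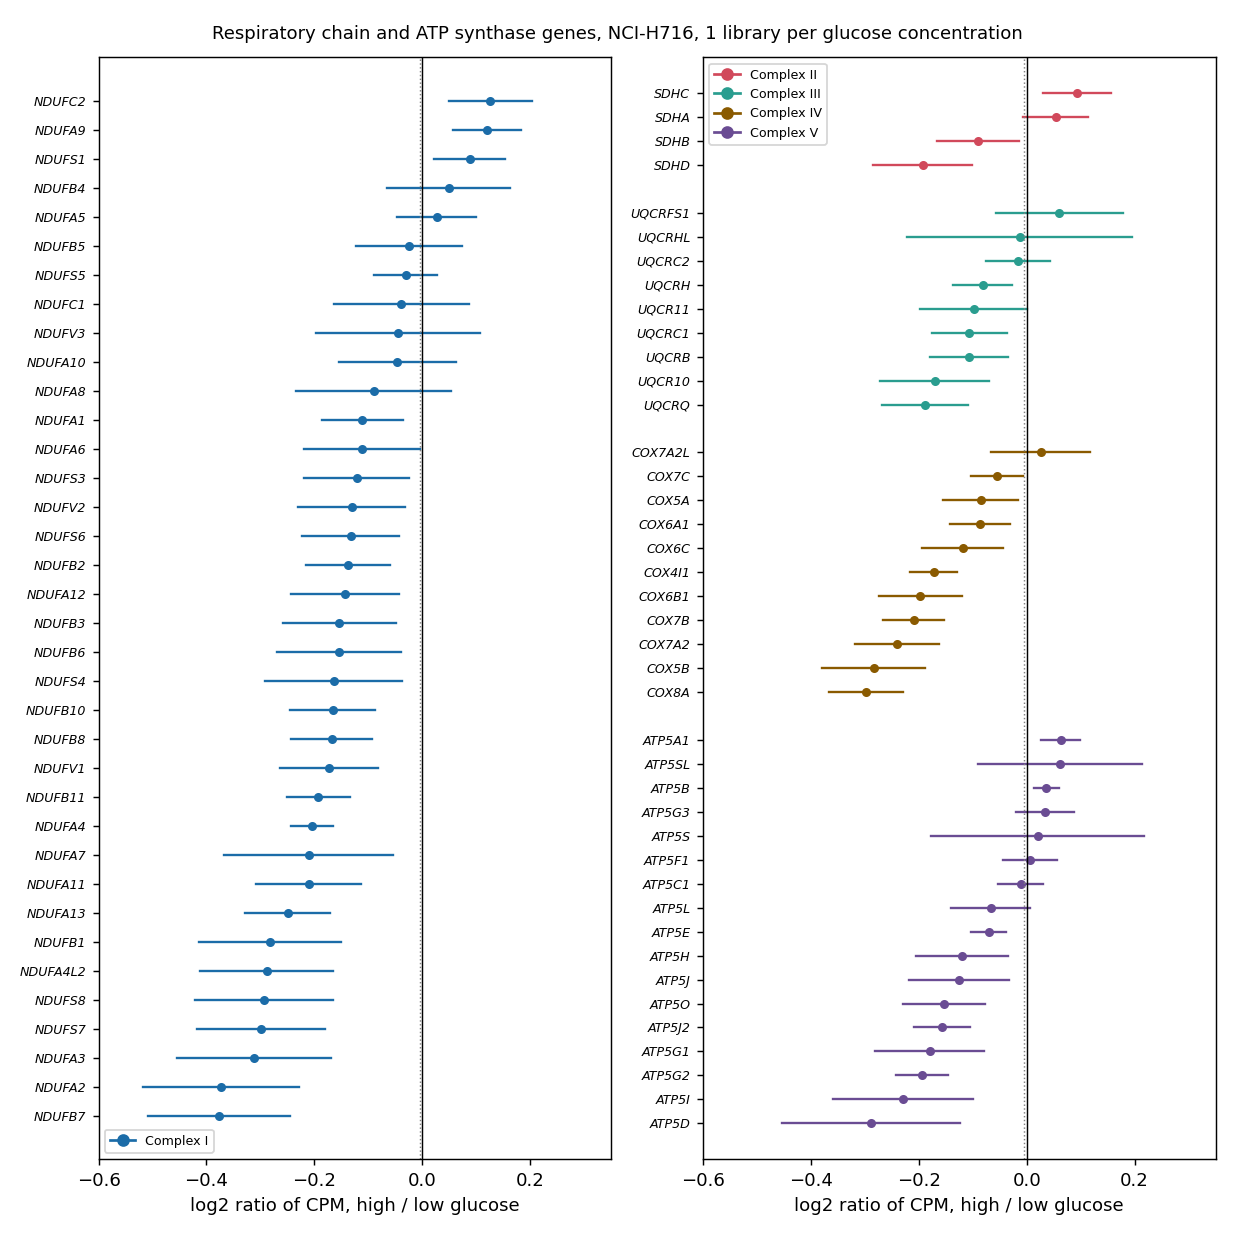
Log2 ratio of CPM, high over low glucose, for 77 of the 78 members (points), with the 95% exact binomial interval from counts (bars, counting error only), 1 library per concentration, complex I on the left and complexes II to V on the right; the dotted line is the median of all genes tested. The points run from -0.38 for NDUFB7 to 0.13 for NDUFC2, and 62 of the 77 lie left of 0.

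The complexes differed in how far their members lay below 0. Summed over its members, complex IV had a log2 ratio of -0.15 (interval -0.17 to -0.13) and complex I one of -0.11 (-0.13 to -0.10). The value was -0.086 for complex III (-0.11 to -0.060) and -0.031 for complex V (-0.043 to -0.018), while complex II was level at 648 CPM in both libraries (interval -0.035 to 0.035). With NDUFB9, which alone exceeded the sum of the other complex I genes, the sum of complex I was 11734 and 10389 CPM (-0.18, -0.18 to -0.17), below that of complex IV, and the sum over all members had a log2 ratio of -0.13. By medians over the members, which exclude NDUFB9 and weigh each gene alike, complex IV lay lowest, at -0.17. The medians were -0.14 for complex I, -0.10 for complex III, -0.07 for complex V and -0.02 for complex II. The complex V median counts ATP5S (0.02) and ATP5SL (0.06), which are not subunits of the enzyme. The order of complexes III and V by median depended on counting them. Members lower in high glucose numbered 10 of 11 in complex IV, 32 of 37 in complex I and 8 of 9 in complex III. They numbered 11 of 17 (64.7%) in complex V and 2 of 4 (50%) in complex II, where 51.2% of genes tested were lower. The differences between complexes were not tested, since subunits are not replicates. The complexes also differed in the length of the longest coding transcript, with which the ratio moved (below). Its median was 1098 bases in complex IV, 1256 in complex I and 1577 in complex V. It was 1914.5 in complex II and 1985 in complex III. The part of length in the order of the complexes was not tested.

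Complex I oxidises NADH, and its core subunits carry the flavin and iron-sulphur clusters that pass the electrons on. Of the 7 nuclear core subunits, 6 were lower in high glucose, where 51.2% of genes tested were lower. The interval lay below 0 for 5 and above 0 for 1, where 15.9% of genes tested lay below and 15.9% above. The iron-sulphur subunits closest to ubiquinone were the lowest: NDUFS7 went from 63.2 CPM in low to 51.3 CPM in high glucose (log2 ratio -0.30, interval -0.42 to -0.18), and NDUFS8 from 54.97 to 44.9 CPM (-0.29, -0.42 to -0.17). NDUFV1, which holds the flavin and the NADH site, was at 102 and 90.7 CPM, its partner NDUFV2 at 83.6 and 76.4 CPM and NDUFS3 at 87.6 and 80.5 CPM, with each interval below 0. NDUFS1, the largest of the iron-sulphur subunits, was the exception and was higher, at 176 and 187 CPM (0.09, 0.023 to 0.15). The core was therefore not uniform, and its ratios ran on both sides of 0.

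The supernumerary subunits surround the core, and many of them are needed for assembly or stability. Of 29, 25 were lower in high glucose, with the interval below 0 for 19 and above 0 for 2, where 51.2% of genes tested were lower and 15.9% had intervals on either side. NDUFB7, a subunit on the intermembrane-space face (ENSG00000099795.6, chromosome 19 of GRCh38, 14566078 to 14572062, minus strand), was the lowest of all members. Its level was 53.0 CPM (low; 95% Wilson interval 50.01 to 56.1) against 40.8 CPM (high; 38.1 to 43.7), a log2 ratio of -0.38 (-0.51 to -0.25). NDUFA2, of the matrix arm, followed at 43.9 and 33.9 CPM (-0.37, -0.52 to -0.23), and NDUFA3, of the membrane arm, at 43.8 and 35.3 CPM (-0.31, -0.46 to -0.17). The Wilson intervals of NDUFB7 in the low and high glucose libraries did not overlap.

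Further supernumerary members at -0.2 or less were NDUFB1 (51.6 and 42.5 CPM), NDUFA13 (137 and 115 CPM), NDUFA11 (90.7 and 78.3 CPM), NDUFA7 (35.4 and 30.6 CPM) and NDUFA4 (544 and 472 CPM). NDUFA13, also known as GRIM-19, spans both arms, and NDUFA4, first assigned to complex I and placed here by its symbol, is now regarded as a subunit of complex IV. The highest ratios belonged to NDUFC2, of the membrane arm (ENSG00000151366.12, chromosome 11, 78068304 to 78080219, minus strand), at 126 and 138 CPM (0.13, 0.049 to 0.20), and to NDUFA9, which lies near the ubiquinone site, at 191 and 208 CPM (0.12, 0.058 to 0.18). NDUFA5 and NDUFB4 were also slightly higher, with intervals that held 0. NDUFC2 and NDUFA9 were thus the only supernumerary subunits of complex I with an interval above 0.

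Complex II, succinate dehydrogenase, joins the citric acid cycle to the chain. SDHA, the flavoprotein (ENSG00000073578.16, chromosome 5, 218241 to 256700, plus strand), had 212 CPM in low and 220 CPM in high glucose (log2 ratio 0.05, interval -0.0067 to 0.11). SDHB, the iron-sulphur protein (chromosome 1, 17018722 to 17054170, minus strand), was at 139 and 131 CPM (-0.09, -0.17 to -0.014). The membrane anchors diverged: SDHC (chromosome 1, 161314257 to 161375340, plus strand) was at 196 and 209 CPM (0.09, 0.031 to 0.16), and SDHD (chromosome 11, 112086773 to 112120013, plus strand) at 101 and 88.1 CPM (-0.19, -0.28 to -0.10). Each catalytic and each anchor pair thus had 1 gene higher and 1 gene lower, with a level sum.

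Complex III passes electrons from ubiquinol to cytochrome c. Its 5 small supernumerary subunits were all lower in high glucose, led by UQCRQ at 131 and 115 CPM (-0.19, interval -0.27 to -0.11), UQCR10 at 82.0 and 72.8 CPM (-0.17, -0.27 to -0.070) and UQCRB at 159 and 148 CPM (-0.11, -0.18 to -0.035). The core proteins, which face the matrix, were at 166 and 154 CPM for UQCRC1 (-0.11, -0.18 to -0.036) and at 229 and 227 CPM for UQCRC2 (-0.02, -0.075 to 0.043). UQCRFS1, the Rieske iron-sulphur protein, was at 56.1 and 58.5 CPM (0.06, -0.056 to 0.18), the only member of the complex above 0, and its interval held 0. No member of complex III had an interval above 0, where 15.9% of genes tested had one and 51.2% were lower.

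Complex IV, cytochrome c oxidase, reduces oxygen, and the catalytic subunits come from mitochondrial DNA, so none of the nuclear genes described here is catalytic. The 10 structural subunits were all lower in high glucose, where 51.2% of genes tested were lower. Each had its interval below 0, against 15.9% of genes tested. COX8A, a small membrane-spanning subunit (ENSG00000176340.3, chromosome 11, 63974607 to 63976543, plus strand), had 191 CPM (low; Wilson interval 186 to 197) and 156 CPM (high; 150.3 to 161), a log2 ratio of -0.30 (-0.37 to -0.23). COX5B, which binds zinc on the matrix side, was at 96.9 and 79.6 CPM (-0.28, -0.38 to -0.19), COX7A2 at 143 and 121 CPM (-0.24, -0.32 to -0.16) and COX7B at 266 and 230 CPM (-0.21, -0.27 to -0.15). The smallest differences among these 10 were those of COX5A, at 169 and 159 CPM (-0.09, -0.15 to -0.016), and COX7C, at 340 and 327 CPM (-0.06, -0.10 to -0.0070). COX7A2L, a factor that joins complex IV to complex III in supercomplexes, lay on the other side of 0, at 92.1 and 93.8 CPM (0.03, -0.067 to 0.12).

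Complex V had 11 members lower (64.7%, against 51.2% of genes tested) and 6 higher. In the catalytic F1 head, the genes of the alpha and beta subunits were slightly higher in high glucose, at 565 and 590 CPM for ATP5A1 (0.06, interval 0.026 to 0.10) and at 1372 and 1408 CPM for ATP5B (ENSG00000110955.8, chromosome 12, 56638175 to 56646068, minus strand; 0.04, 0.013 to 0.060). ATP5C1, the gamma subunit of the central stalk, was level at 444 and 440 CPM. The delta subunit gene ATP5D, also of the central stalk (chromosome 19, 1241746 to 1244826, plus strand), was the lowest member of the complex, at 33.0 and 27.0 CPM (-0.29, -0.45 to -0.12), and ATP5E was at 727 and 693 CPM. The 5 genes of head and central stalk therefore included both the lowest and the highest ratio of the complex.

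Of the 4 peripheral stalk genes, which hold the head still against rotation, ATP5O, ATP5J and ATP5H were lower with log2 ratios of -0.15, -0.13 and -0.12, and ATP5F1 was level at 312 and 313 CPM. The small membrane subunits ATP5I, at 51.6 and 44.0 CPM (-0.23, interval -0.36 to -0.10), ATP5J2, at 305 and 274 CPM (-0.16), and ATP5L, at 154 and 147 CPM (-0.07), were lower, and the interval of ATP5L held 0. ATP5S and ATP5SL, which share the symbol stem but are not subunits of the enzyme, were at 20.4 and 20.7 CPM and at 34.0 and 35.5 CPM, with intervals that held 0. Without these, NDUFA4L2 and UQCRHL, the median of the other 74 members was -0.12, with 61 lower.

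**Figure D2:**
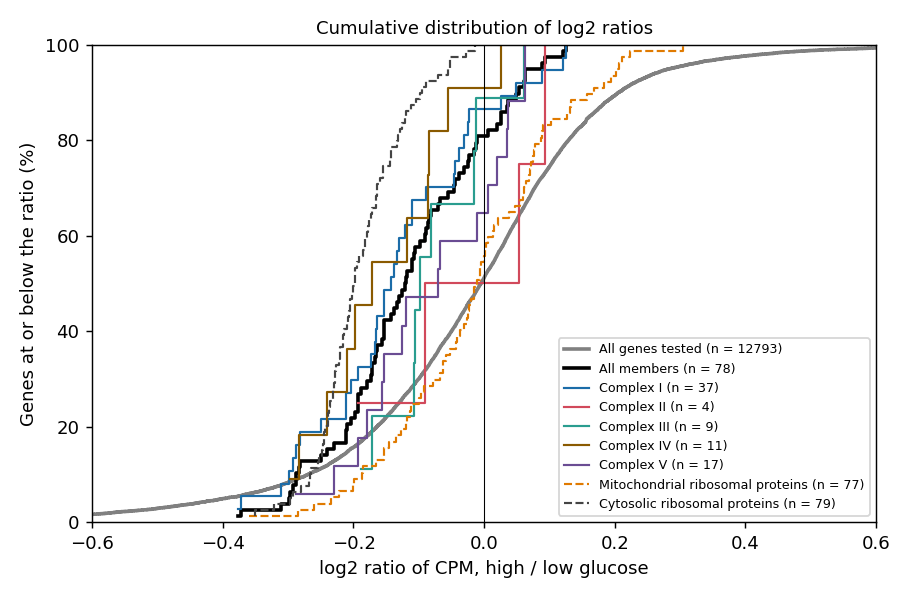
Cumulative share of genes (percent) at or below each log2 ratio of CPM, high over low glucose, for all genes tested, all members, each complex, and the mitochondrial and cytosolic ribosomal protein genes; the axis stops at -0.6 and 0.6. The curve of all members lies to the left of that of all genes over most of its course, complex II crosses it, and the mitochondrial ribosomal proteins follow it closely.

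Several subunits exist as paralogs that are used in different tissues, and the files give their balance. NDUFA4L2, known as a target of hypoxia signalling, was at 58.2 and 47.7 CPM (-0.29, interval -0.41 to -0.17) beside NDUFA4 at 544 and 472 CPM, and it held 16.1% of the pair's level per kb of transcript in low and 15.4% in high glucose. UQCRHL, an intronless copy of UQCRH, held 1.89% of that pair's level per kb in low and 1.98% in high glucose, and UQCRH was at 268 and 253 CPM. COX6B2, the testis form, had 1 and 2 counts, below the 0.138 and 0.154 CPM that a count of 0 allows at these depths (3 counts), beside COX6B1 at 146 and 128 CPM. COX4I1, COX6A1, COX7B and COX8A were measured, and COX4I2, COX6A2, COX7A1, COX7B2 and COX8C had no value and were not analysed here.

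The c ring of the ATP synthase is built from 1 mature protein that 3 genes encode. ATP5G1 was at 83.4 and 73.6 CPM (-0.18, interval -0.28 to -0.079), ATP5G2 at 356 and 311 CPM (-0.19, -0.24 to -0.15) and ATP5G3 at 273 and 280 CPM (0.03, -0.019 to 0.087). Per kb of the longest coding transcript, ATP5G2 supplied 49.6% of the set in low and 48.3% in high glucose, and ATP5G3 13.5% and 15.4%. By the mean length of the coding transcripts, ATP5G2 supplied 53.0% and ATP5G3 19.1% in low glucose, so ATP5G2 led under both lengths. ATP5G1 ranked above ATP5G3 under both.

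Levels can be set between genes only per length, and they are given here as CPM per kb of the longest coding transcript, as means of the libraries. The median was 54.9 for complex I, 77.9 for complex II, 80.8 for complex III, 144 for complex IV and 128 for complex V, against 9.07 for all genes tested. ATP5B was highest at 756 CPM per kb, followed by ATP5J2 at 477, and these kept the top ranks with the mean length of the coding transcripts. Complex IV ran from COX7A2L (30.4) and COX7B (100.2) to COX8A (342) and COX6A1 (456). In complex I the lowest were NDUFV3 (7.37 CPM per kb) and NDUFA10 (13.6), and the highest NDUFA4 (239) and NDUFS5 (418). Complex III ran from UQCRHL (8.52) and UQCRFS1 (16.5) to UQCRQ (147) and UQCRH (432), and complex II from SDHC (14.9) to SDHB (117). ATP5S (2.01) and ATP5SL (20.6) were lowest in complex V. Complexes I to V kept higher medians than all genes, and complex IV the highest, under both lengths. The order of complexes II and III turned with the mean length (118 and 93.3 CPM per kb), and the order of individual genes with a long annotated transcript, such as SDHC and COX7B, depended on the length used.

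**Figure D3:**
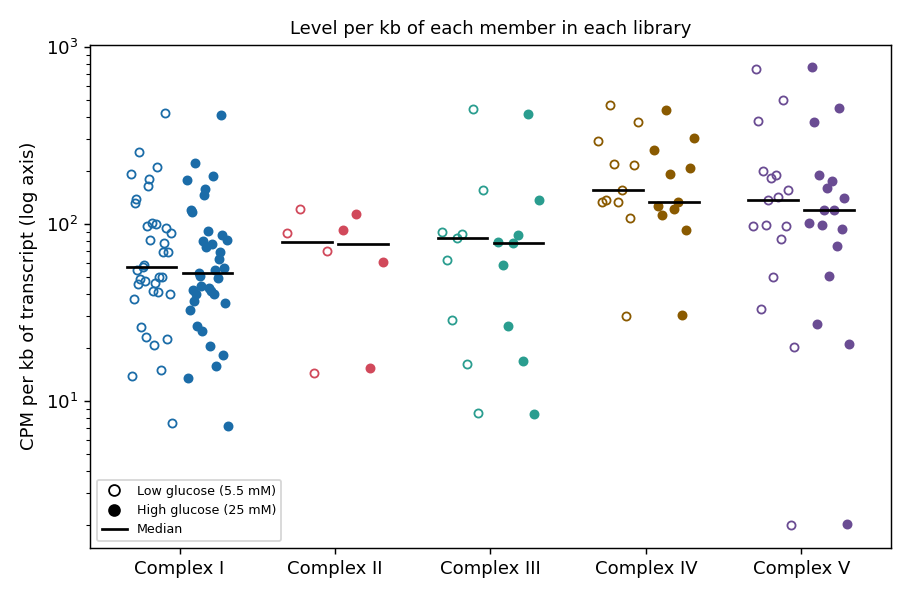
CPM per kb of the longest coding transcript (log axis) for each member in the low glucose library (open points) and the high glucose library (filled points), by complex, with medians as bars. Complexes IV and V sit above complex I in both libraries, and open and filled medians lie close together.

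Transcript length moved with the ratio. All 30 members whose longest coding transcript was under 1 kb were lower in high glucose, with a median log2 ratio of -0.18, and 79.9% of the 468 genes tested of that length were lower too, with a median of -0.14. From 1 to 2 kb, 20 of 23 members were lower (median -0.11) against 60.0% of 1960 genes (-0.044). From 2 to 4 kb, 9 of 14 were lower (-0.020) against 46.7% of 4487 genes (0.013), and at 4 kb or more 4 of 11 were lower (0.027) against 47.0% of 4839 genes (0.013). The members' median was thus below that of genes of like length in each class under 4 kb and above it in the longest class. By the mean length of the coding transcripts, it was below in the classes under 2 kb and above from 2 to 4 kb (0.023 against 0.017), with no member longer. Over the 48 members of 1 kb or more the median was -0.06, with 33 lower, against -0.12 over all members. Across the members, which share both libraries, Pearson's r between log2 ratio and log2 length was 0.64 and Spearman's rho 0.59 (n = 78), against 0.088 and 0.10 over 11420 protein-coding genes.

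The G and C content of the transcript moved with the ratio as well. Members at 55% or more had a median of -0.21 (17 of 19 lower), those from 45 to 55% -0.10 (30 of 34) and those under 45% -0.07 (16 of 25), where protein-coding genes tested had medians of -0.059 (64.9% lower), 0.011 (47.5%) and 0.037 (40.4%). Of the chromosomes, 19 held the most members, 11, with a median of -0.21 and 9 lower. The part of length and base composition in the members' ratios was not tested.

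**Figure D4:**
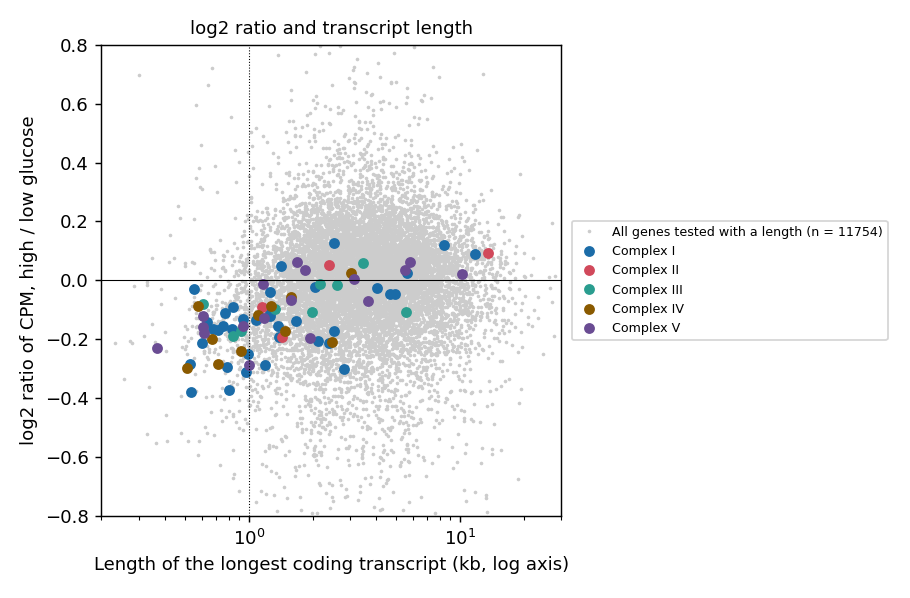
Log2 ratio of CPM, high over low glucose, against the length of the longest coding transcript (kb, log axis) for 11754 genes tested with a length (grey) and the members by complex (coloured); the vertical line marks 1 kb and genes beyond 0.8 in size are outside the axis. All 30 members left of the line lie below 0, and members above 0 lie to its right.

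The ribosomal protein genes form other large protein complexes. The mitochondrial ribosomal proteins, which translate the subunits encoded by mitochondrial DNA, gave a median of -0.01 on the log2 scale across 77 genes (43 lower, 34 higher, with intervals below 0 for 12, or 15.6%, and above 0 for 11, where 15.9% of genes tested lay on either side), and the 12 under 1 kb had a median of -0.02. MRPL34 was at 28.9 and 22.5 CPM (-0.36) and MRPL54 at 22.8 and 18.7 CPM (-0.29), while MRPL18 was at 38.0 and 44.4 CPM (0.22) and MRPL35 at 66.5 and 82.1 CPM (0.30). The cytosolic ribosomal proteins had a median of -0.20, with 79 of 79 lower and 77 intervals below 0, and by length their median was -0.20 under 1 kb (26 genes), -0.20 from 1 to 2 kb (31 genes), -0.13 from 2 to 4 kb (16 genes) and -0.24 at 4 kb or more (6 genes). RPS15 (500 and 392 CPM) and RPS29 (495 and 388 CPM) were the lowest of them, and RPL7 (638 and 626 CPM) and RPL22 (724 and 717 CPM) the closest to level.

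The factors that assemble the complexes lay close to the background of all genes tested. Of 54 listed, 49 were tested, with a median log2 ratio of -0.03 and 28 lower (57.1%, against 51.2% of all genes tested). Intervals lay below 0 for 9 (18.4%, against 15.9%) and above 0 for 9 (against 15.9%), and the difference from the subunits was not tested. COA6, a copper-handling factor of complex IV, was at 50.5 and 37.7 CPM (-0.42, interval -0.56 to -0.29), and SCO2, another copper factor of that complex, at 17.5 and 15.0 CPM (-0.22, -0.45 to 0.00068). Its relative SCO1 was at 23.9 and 29.4 CPM (0.30, 0.13 to 0.47), and NDUFAF7, a complex I methyltransferase, at 14.4 and 17.1 CPM (0.24, 0.015 to 0.47). The copper factors SCO1 and COA6, of 1 complex, were thus the highest and the lowest named.

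In the list of mobile carriers and ubiquinone synthesis, which also holds the complex III gene CYC1 and electron transfer flavoprotein genes, 8 were lower and 8 higher of 16 tested, near the even split of all genes tested. CYCS, cytochrome c, was at 512 CPM in low and 559 CPM in high glucose (0.13, interval 0.088 to 0.16), on the other side of 0 from most of complexes III and IV between which it shuttles. PDSS1, which builds the ubiquinone tail, was at 19.4 and 24.7 CPM (0.35, 0.16 to 0.54), and COQ2 and COQ9, of later steps, were at 20.3 and 18.02 CPM and at 64.1 and 56.9 CPM. Of 14 enzymes of the citric acid cycle, 7 were lower and 7 higher, with IDH3B at 35.3 and 33.1 CPM, and with FH, the fumarase, at 126 and 135 CPM and IDH3A at 62.7 and 74.0 CPM (0.24, 0.13 to 0.35).

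Of 23 regulators of mitochondrial biogenesis tested, 11 were lower (47.8%, against 51.2% of all genes tested) and 12 higher. PPARGC1A, which encodes the coactivator PGC-1alpha, was at 26.3 CPM in low and 18.8 CPM in high glucose (log2 ratio -0.48, interval -0.68 to -0.29), and MYC at 246 and 216 CPM (-0.19, -0.25 to -0.13). GABPB1, a subunit of GABP, was at 30.1 and 38.5 CPM (0.36, 0.20 to 0.51), and TFB2M, a mitochondrial transcription factor, at 15.4 and 18.4 CPM (0.26, 0.042 to 0.48). The gene of the NRF1 factor itself was at 24.7 and 23.0 CPM (-0.10, -0.29 to 0.082), and YY1 at 230 and 256 CPM (0.15, 0.094 to 0.21). These last were named for the promoter letters above and not by their ratios.

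Shared sequence limits the counts of some members. Of the 78, 42 had at least 1 stretch of 75 bases in common with another gene's transcripts, and 13 shared 20% or more, most with an overlapping or read-through gene, such as NDUFA7 (75.3%), NDUFV2 (73.3%), NDUFB2 (73.2%), ATP5O (68.1%) and NDUFS7 (52.4%). Their counts rest on how RSEM divided reads, and the library kit did not mark strand. Genes with a dash in their symbol, such as the read-through genes NDUFC2-KCTD14 and ATP5J2-PTCD1, were not searched. Members with no stretch found, NDUFC2 and ATP5J2 among them, can thus still share bases with such genes. The 36 members with no shared stretch found had a median log2 ratio of -0.13, with 32 lower. The 42 with one had a median of -0.11, with 31 lower, where 51.2% of genes tested were lower.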

How the data were processed

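Polyadenylated RNA of hNCI-H716 cells was measured in 1 library per glucose concentration. The authors trimmed reads with Trim Galore 0.5.0, aligned them to GRCh38 with STAR 2.6.0, estimated gene counts with RSEM 1.3.1, removed genes with very low counts and normalized with edgeR (versions per the submitters' processing notes). The deposited table holds CPM and log2 CPM per library, plus the authors' mean over both libraries and columns of their own comparison, a fold and a log2 difference of high against low glucose, which were not used.

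The members and lists were chosen with earlier results of these data known. The count worth of the CPM steps gave each library's total. Of the values under 10 CPM, 77.4% (low) and 77.2% (high) were whole to within 0.1 count, so the counts were treated as RSEM estimates and no count model was run. CPM were divided by TMM factors computed from these counts (0.998 low, 1.002 high). Genes tested had at least 1 deposited CPM in both libraries. Levels carry 95% Wilson intervals and log2 ratios 95% exact binomial intervals, both for counting error only. A count of 0 allows 0.138 CPM (low) and 0.154 CPM (high). Groups followed the glucose label, and no difference was tested, as each group is 1 library.

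Named genes were all of complex II, the 3 highest and 3 lowest ratios and the 2 highest and 2 lowest levels per kb in each other complex, members past a log2 ratio of 0.2 in size, the paralog sets, genes left out for low CPM, and the 2 highest and 2 lowest ratios of each other list (mean of at least 10 CPM). Other members were named to complete a structural group, and 2 genes that the rule or a group would name are not reported here. Length, GC content and coordinates came from GENCODE v29 on GRCh38, which matched all 78 members, 16 of them by a RefSeq synonym, and 91.9% of genes tested. Calculations ran in scipy 1.17.1, pandas 2.3.3 and numpy 2.4.6 under Python 3.11.15 and were checked on simulated libraries. Alternatives were other scalings, filters, a pseudocount of 1 CPM, other size thresholds, another transcript length and other member sets.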

Additional observations from a re-analysis of the deposited data

How the results depend on the processing

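Of 157 alternative values over 24 results, 143 kept their direction and stayed near the reported value (for medians, within the median distance from the middle to the end of a single gene's counting interval, a wide margin for a median), and 3 turned sign. By that margin, the members' median of -0.12 counted as near at -0.18 under 1 kb and -0.06 at 1 kb or more, a split added after seeing the data. The median log2 ratio of the carriers and ubiquinone genes, -0.0033 as reported, was 0.0012 with library totals and 0.00089 with median-of-ratios size factors, and that of the biogenesis regulators, 0.0036 as reported, was -0.023 with a filter of 5 CPM, so neither list has a direction. With NDUFB9 added, chosen after seeing the data, the summed log2 ratio moved from -0.079 to -0.13 over all members and from -0.11 to -0.18 in complex I. Members at -0.2 or less numbered 17, against 45 at a threshold of 0.1 and 3 at 0.3. Members at 0.2 or more numbered 0, against 1 with no filter and 2 at a threshold of 0.1. With the mean length of coding transcripts, median CPM per kb was 82.3, 118, 93.3, 263 and 172 in complexes I to V. No paired analysis was possible because the groups hold 1 library each. Counting intervals depend on depth alone and carry no culture-to-culture spread, so no ratio has a measure of that spread.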

Other observations

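Subunit genes whose symbols fall outside the chosen stems lay on the same side as most members. CYC1, which encodes cytochrome c1 of complex III and was counted above in the list of mobile carriers, was at 136 CPM in low and 125 CPM in high glucose (log2 ratio -0.12, interval -0.20 to -0.046). NDUFAB1, the acyl carrier protein of complex I, had a log2 ratio of -0.10, and the small ATP synthase genes C14orf2 and USMG5 had log2 ratios of -0.08 and -0.06. The median of these 4 genes was -0.09, and 3 of the 4 intervals lay below 0. Of all genes tested, 51.2% were lower and 15.9% had intervals below 0. NDUFB9, a complex I gene left out by name, was at 7703 and 6665 CPM (-0.21, interval -0.22 to -0.20), where the other members had means of up to 1390 CPM. Of the other rows left out, the read-through gene ATP5J2-PTCD1 was at 31.1 and 32.1 CPM (0.05, -0.11 to 0.20), and COX6A1P2, a pseudogene copy that shares sequence with COX6A1, at 4.04 and 2.81 CPM (-0.52, -1.03 to -0.019).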
